A study of Microtus ochrogaster with 46 samples.

Results

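ENSMOCG00000009195, ENSMOCG00000004048 and ENSMOCG00000017266 are 3 genes of the prairie vole (Microtus ochrogaster) that read near 0 in some animals and high in others of the same sex and condition. They are 3 of the 17479 genes in the deposited table, and they were chosen on exactly this range of values within groups. The spread itself is therefore described here without a test. Tests are given only for differences between groups and for whether the same animals were low for several genes. ENSMOCG00000004048 and ENSMOCG00000017266 had already been named for a difference between the sexes in these data, so that difference is not independent of how they came to be looked at.

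RNA came from tissue punches of the nucleus accumbens of 46 voles, 1 library per animal. No genotype, strain or age is given for any group. The naive groups (10 females, 6 males) were housed with a littermate of their own sex for 3 weeks. The paired groups were housed with a partner of the other sex, either for 24 h (10 females, 6 males) or for 3 weeks (9 females, 5 males). These numbers follow the sample titles. Which animals shared a litter or a cage is not given.

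Prairie voles bond with a mate for long periods, and the nucleus accumbens, a reward centre of the forebrain, is one of the places where dopamine, oxytocin and vasopressin act in that behaviour. The 3 genes carry identifiers only, and the reference gene table used here matched 0 of the 17478 identifiers. No symbol, function, position or sequence is therefore given for them. Of the whole table, 1 row carries a symbol, that of the vasopressin receptor Avpr1a.

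Values are normalized counts, obtained by undoing the deposited log2. Estimated depth was 15.3 to 38.2 M reads (M for mega) per library (median 29.3), and 1 read was worth 0.697 to 1.88 normalized counts. A value under 10 normalized counts, called low here, thus stood for fewer than 5.33 to 14.3 reads. The libraries were cut into a pair of clusters by the gene-specific factors of the normalization, here called pattern A (35 libraries) and pattern B (11). The number of clusters was set beforehand, and how firmly they separate was not tested. The 11 were exactly the naive males (6) and the males at 3 weeks (5), and pattern A held every female and the 6 males at 24 h. Males at 24 h therefore differ in pattern from the other males, and so do males from females except at 24 h. For males at 24 h against other males, and for males against females when naive or at 3 weeks, pattern and group cannot be told apart.

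All 3 genes passed the filter for testing, a mean of at least 10 normalized counts, as did 14455 genes in all. Their spread within groups was large, as the choice required. The SD of log2(normalized count + 1) within groups was 2.96 for ENSMOCG00000009195, 2.50 for ENSMOCG00000004048 and 1.84 for ENSMOCG00000017266, against a median of 0.22 over all genes tested. By that SD they stood at places 6, 17 and 88. Of all genes, 174 (0.995%) went from under 10 to at least 100 normalized counts within 1 or more groups, 40 did so in at least 4 groups and 18 in at least 5. ENSMOCG00000004048 did so in 5 of the 6 groups, ENSMOCG00000009195 in 4 and ENSMOCG00000017266 in 2.

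**Figure D1:**
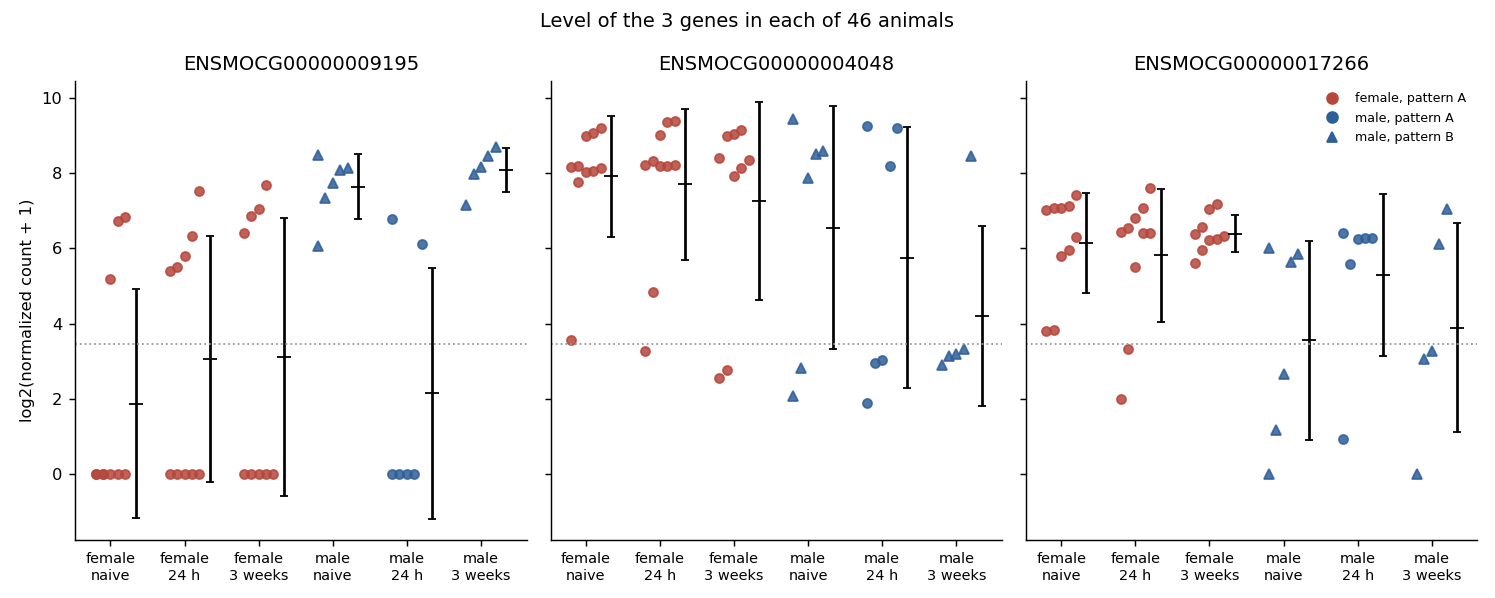
Each point is 1 animal, with the group on the x axis and log2(normalized count + 1) on the y axis. Black marks are the group mean with its SD, the dotted line is 10 normalized counts, and circles and triangles are normalization patterns A and B. ENSMOCG00000009195 was listed at 0 in 21 animals, none of them a naive male or a male at 3 weeks. Each of the 3 genes had low animals of both sexes.

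ENSMOCG00000009195 had zeros and, apart from them, only values of at least 35.1 normalized counts. Of the animals above 0, 8 read under 100 and 17 at least 100. It was listed at 0 in 21 animals, and the lowest value in the other 25 was 35.1 normalized counts, with a median of 130 and a highest value of 414. No animal stood between 0 and 35.1. With limits chosen after these values were seen, it was the only 1 of the 14455 genes tested that was listed at 0 in at least 1 library and read at least 30 in every other. Zeros as such were less rare, since 262 tested genes (1.81%) were listed at 0 in at least 1 library. The animals at 0 had depths of 22.6 to 38.2 M reads (median 29.6). Those of the others were 15.3 to 37.0 M (median 28.9). Whether depth had a part in the zeros was not tested.

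The zeros of ENSMOCG00000009195 lay in 4 of the 6 groups. Of naive females 7 of 10 were at 0, with a median of 0 and a highest value of 113 normalized counts. Of females at 24 h 5 of 10 were at 0, with a median of 20.7 and a highest value of 182. No animal read near that median, which lies between the animals at 0 and the others. Of females at 3 weeks 5 of 9 were at 0, with a median of 0 and a highest value of 206. In each female group, then, animals at 0 and animals above 35 normalized counts were found side by side.

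In males the zeros lay in 1 condition. All 6 naive males were above 0, from 66.0 to 358 normalized counts with a median of 241. Males at 24 h were at 0 in 4 of 6, with a highest value of 110. The 5 males at 3 weeks read 288, 142, 350, 249 and 414 normalized counts. Naive males and males at 24 h overlapped, since the naive male at 66.0 lay below the males at 24 h at 68.4 and 110. Males at 3 weeks all lay above the males at 24 h.

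By mean log2 level, ENSMOCG00000009195 was ordered from males at 3 weeks (8.09 ± 0.59, SD, n = 5) and naive males (7.64 ± 0.87, n = 6) down to females at 3 weeks (3.11 ± 3.70, n = 9) and at 24 h (3.05 ± 3.27, n = 10), males at 24 h (2.15 ± 3.34, n = 6) and naive females (1.87 ± 3.05, n = 10). Of the neighbours in that order, naive males and females at 3 weeks differed by more than the SD of each, by 4.53. The other neighbours differed by less than their spread. The 2 leading groups are those of pattern B, in which 0 of 11 libraries were at 0, against 21 of 35 in pattern A. Whether the normalization had a part in these zeros was not tested.

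ENSMOCG00000004048 was never listed at 0, and its 46 animals lay in 3 bands. The low band held 14 animals at 2.73 to 27.7 normalized counts, with a median of 7.00. The middle band held 20 animals at 218 to 384, with a median of 290.1. The upper band held 12 animals at 503 to 686, with a median of 574. These bands lie between the widest empty stretches on the linear scale, from 27.7 to 218 and from 384 to 503, and were drawn after the values were seen.

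**Figure D2:**
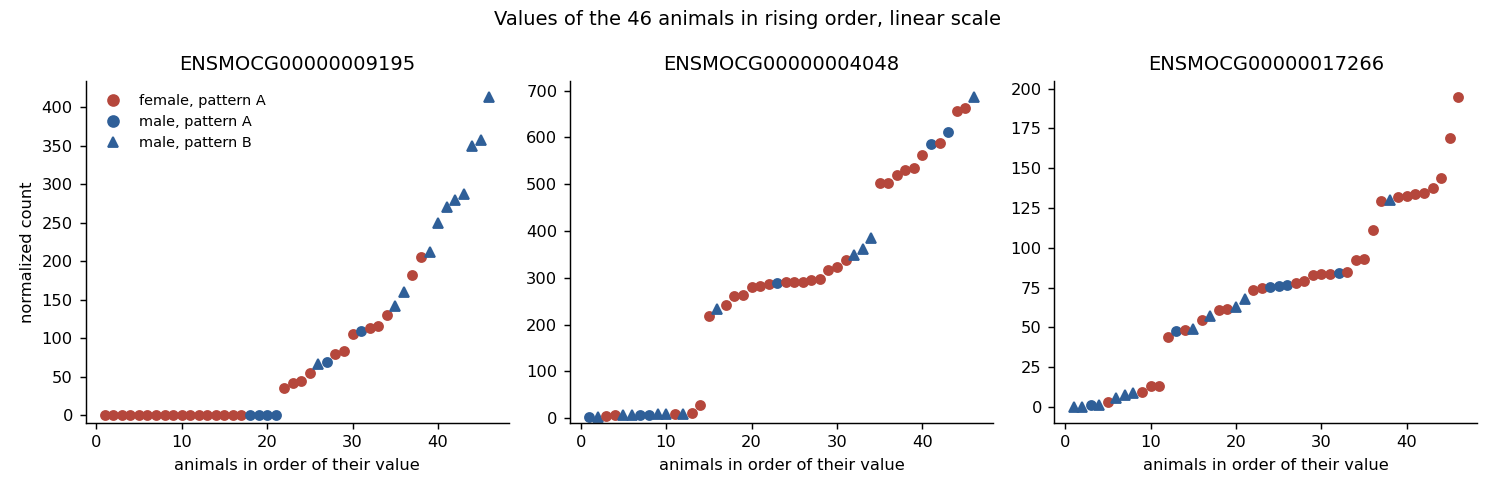
The 46 animals in rising order of their value (x axis) against the normalized count on a linear scale (y axis), 1 panel per gene, with colour for sex and shape for normalization pattern. ENSMOCG00000009195 leaves 0 at 35.1, ENSMOCG00000004048 steps from 27.7 to 218 and from 384 to 503, and ENSMOCG00000017266 steps from 13.3 to 44.1.

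Every group had animals in the low band and the middle band of ENSMOCG00000004048. Of naive females 1 was low, 6 were in the middle band and 3 in the upper band, with a range of 10.8 to 588 normalized counts and a median of 284. Of females at 24 h 2 were low, 5 middle and 3 upper, with a range of 8.64 to 663 and a median of 296. Of females at 3 weeks 2 were low, 4 middle and 3 upper, with a range of 4.90 to 562 and a median of 324. The female groups overlapped over nearly their whole range.

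The low band of ENSMOCG00000004048 held 9 of 17 males and 5 of 29 females. Naive males ranged from 3.23 to 686 normalized counts with a median of 298, and 2 were low, 3 middle and 1 upper. Males at 24 h ranged from 2.73 to 610 with a median of 148, and 3 were low, 1 middle and 2 upper. Their median falls between the low and the middle band, where no animal read. The 5 males at 3 weeks read 8.94, 349, 8.14, 7.81 and 6.49, so that 4 were low, 1 was in the middle band and 0 in the upper band. All male groups overlapped with each other and with the female groups.

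The mean log2 level of ENSMOCG00000004048 ran from 7.92 ± 1.61 (SD, n = 10) in naive females, over females at 24 h with 7.70 ± 2.01 (n = 10) and females at 3 weeks with 7.26 ± 2.64 (n = 9), to 6.55 ± 3.22 (n = 6) in naive males, 5.75 ± 3.46 (n = 6) in males at 24 h and 4.20 ± 2.38 (n = 5) in males at 3 weeks. No neighbours in this order differed by more than the SD of each. Low animals, those under 10 normalized counts, had depths of 20.6 to 35.6 M reads (median 29.25), and the others 15.3 to 38.2 M (median 29.20).

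ENSMOCG00000017266 had the narrowest gap between low and other animals of the 3 genes, 1.66 on the log2 scale against 2.93 for ENSMOCG00000004048 and 5.17 for ENSMOCG00000009195. Its 11 lowest animals read 0 to 13.3 normalized counts, 24 read 44.1 to 93.0 with a median of 75.0, and 11 read 111 to 195 with a median of 134. The stretch from 13.3 to 44.1 was its widest gap on both scales. The limit of 100 between the other 2 bands falls in a narrower gap, from 93.0 to 111. The 2 animals listed at 0 were replicate 6 of the naive males and replicate 4 of the males at 3 weeks.

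Females at 3 weeks had no low animal for ENSMOCG00000017266, with values of 48.3 to 144 normalized counts and a median of 78.8. Naive females ranged from 12.9 to 169 with a median of 104, and females at 24 h from 3.02 to 195 with a median of 84.4. Of the 11 animals above 100, 10 were females, 5 of them naive. The female groups overlapped, and the spread at 3 weeks was the narrowest of the 6 groups, with an SD of 0.49 on the log2 scale.

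Males of all conditions reached low values of ENSMOCG00000017266. Naive males ranged from 0 to 62.8 normalized counts with a median of 27.2, with 3 of 6 under 10. Their median falls in the widest gap of this gene, where no animal read. Males at 24 h ranged from 0.896 to 84.2 with a median of 75.7, with 1 of 6 under 10. The 5 males at 3 weeks read 130, 7.36, 8.66, 0 and 68.1. In mean log2 level the order was females at 3 weeks (6.39 ± 0.49, SD, n = 9), naive females (6.14 ± 1.34, n = 10), females at 24 h (5.81 ± 1.77, n = 10), males at 24 h (5.29 ± 2.16, n = 6), males at 3 weeks (3.90 ± 2.78, n = 5) and naive males (3.55 ± 2.64, n = 6). No neighbours differed by more than the SD of each.

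The first question of the design is what time with a partner did in each sex. Differences were tested with limma on log2(normalized count + 1) in 1 fit over all 46 libraries, with p-values adjusted by the Benjamini-Hochberg method over all 14455 genes and a threshold of 0.05. None of the 3 genes passed in any of the 6 comparisons of conditions within a sex. In females at 24 h against naive females, where 0.104% of genes were called, the log2 difference came to 1.18 (SE 1.29, adjusted p = 0.638 by limma) for ENSMOCG00000009195, -0.22 (SE 1.10, adjusted p = 0.932) for ENSMOCG00000004048 and -0.33 (SE 0.80, adjusted p = 0.855) for ENSMOCG00000017266. At 3 weeks against naive females, with 0% of genes called and 710 at an unadjusted p under 0.05 by limma, the differences were 1.24 (SE 1.32), -0.66 (SE 1.13) and 0.25 (SE 0.82). Between females at 3 weeks and at 24 h, with 0% called and 1248 at an unadjusted p under 0.05 by limma, they were 0.06 (SE 1.32), -0.44 (SE 1.13) and 0.58 (SE 0.82).

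The errors are wide beside the differences. For females at 24 h against naive females the 95% interval of the log2 difference ran from -1.42 to 3.78 for ENSMOCG00000009195, from -2.44 to 2.00 for ENSMOCG00000004048 and from -1.94 to 1.28 for ENSMOCG00000017266. Each interval thus held differences of either sign, up to 3.78 log2 units for ENSMOCG00000009195.

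In males the widest differences between conditions were those of ENSMOCG00000009195. From naive males to males at 24 h the log2 difference came to -5.49 (SE 1.66, adjusted p = 0.122 by limma; 0.242% of genes called), and from 24 h to 3 weeks it was 5.94 (SE 1.74, adjusted p = 0.208; 0.0692% called). Males at 3 weeks stood 0.45 above naive males (SE 1.74, adjusted p = 0.999 by limma; 0% called, 344 genes at an unadjusted p under 0.05). That SE comes from a spread shared by all 6 groups. The SDs of males at 3 weeks and naive males themselves were 0.59 and 0.87. With the gene taken alone, an exact permutation test of the difference of means, 2-sided, gave p = 0.00649 for 24 h against naive males and p = 0.00433 for 3 weeks against 24 h. These 2 are among 9 exact tests of male groups, are not adjusted, and were added after the values were seen. The second is the smallest p that 6 and 5 animals allow. Both comparisons use the males at 24 h, and both run between patterns A and B. The gene was also chosen for its range within groups, and males at 24 h are among the groups with that range. Neither exact p allows for that choice, so both are descriptions.

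The other genes did not move past the threshold in males. For ENSMOCG00000004048 the log2 difference came to -0.79 (SE 1.42, adjusted p = 0.892 by limma) at 24 h against naive males, -2.35 (SE 1.49, adjusted p = 0.999) at 3 weeks against naive males and -1.55 (SE 1.49, adjusted p = 0.793) at 3 weeks against 24 h. For ENSMOCG00000017266 these were 1.73 (SE 1.03, adjusted p = 0.531 by limma), 0.34 (SE 1.08, adjusted p = 0.999) and -1.39 (SE 1.08, adjusted p = 0.730).

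Whether the change with a partner differed between the sexes was tested as an interaction. At 24 h the male change minus the female change was -6.67 (SE 2.10, adjusted p = 0.299 by limma; 0.0484% of genes called) for ENSMOCG00000009195, -0.58 (SE 1.79, adjusted p = 0.949) for ENSMOCG00000004048 and 2.06 (SE 1.30, adjusted p = 0.659) for ENSMOCG00000017266. At 3 weeks it was -0.79 (SE 2.19), -1.69 (SE 1.87) and 0.09 (SE 1.36), each with an adjusted p of 0.999 by limma, with 0% of genes called and 454 at an unadjusted p under 0.05.

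**Figure D3:**
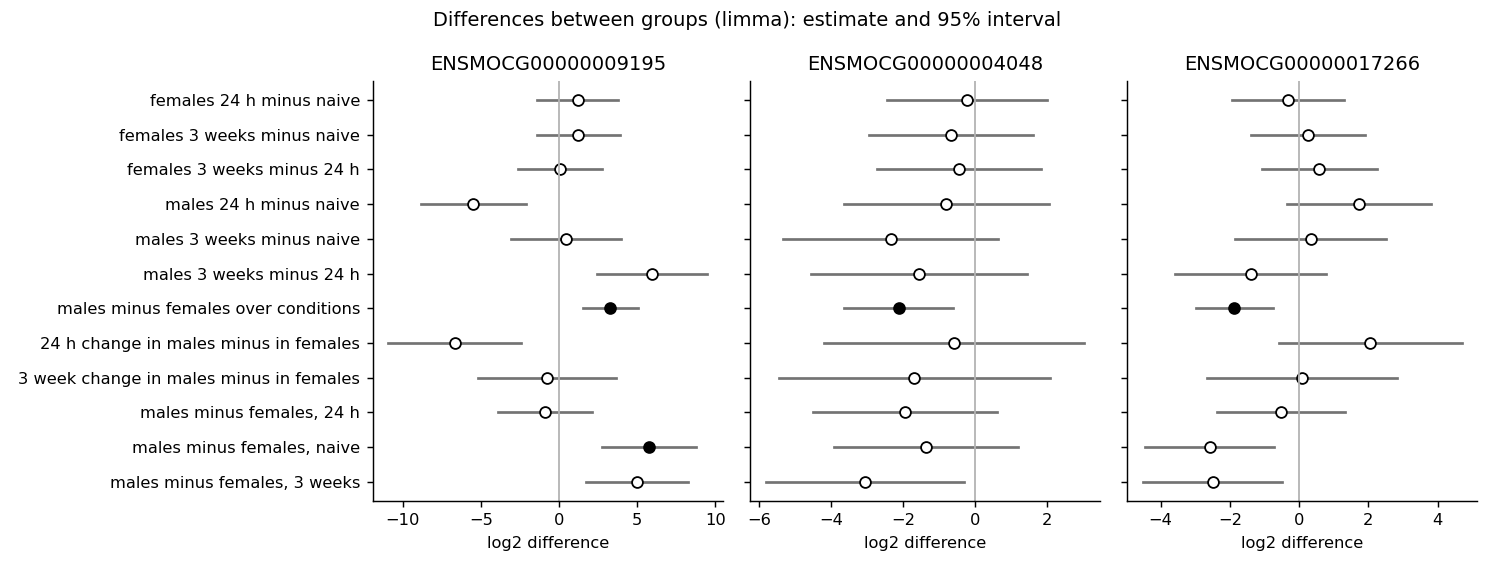
Log2 differences between groups (x axis) for each comparison (y axis), 1 panel per gene, with the limma estimate as a point and its 95% interval as a line. Filled points have an adjusted p under 0.05, which is the case for males minus females over the conditions in all 3 genes and for naive males minus naive females in ENSMOCG00000009195.

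Averaged over the conditions, all 3 genes differed between males and females, in a comparison in which 19.6% of all genes tested were called. ENSMOCG00000009195 was higher in males, by 3.28 on the log2 scale (SE 0.88, 95% interval 1.5 to 5.06, adjusted p = 0.00724 by limma). The other two were lower in males. The log2 difference was -2.12 (95% interval -3.64 to -0.60, SE 0.75, adjusted p = 0.0413 by limma) for ENSMOCG00000004048 and -1.87 (95% interval -2.97 to -0.76, SE 0.55, adjusted p = 0.0132) for ENSMOCG00000017266.

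Single conditions gave different values, although the change in this difference from naive animals to 24 h, which is the interaction above, did not pass. For ENSMOCG00000009195 the males stood 5.77 above the females in naive animals (SE 1.49, adjusted p = 0.0274 by limma; 2.28% of genes called) and 4.98 above them at 3 weeks (SE 1.61, adjusted p = 0.0682; 3.19% called). At 24 h, where every library was of pattern A, the difference had the opposite sign, at -0.90 (SE 1.49, 95% interval -3.90 to 2.10, adjusted p = 0.858 by limma; 0.0138% called). So the higher level in males rested on the 2 male groups of pattern B. The call in naive animals was lost without naive female 2 or 5, or naive male 1, 2 or 4, with differences of 5.56 to 5.83 and an adjusted p of 0.0511 to 0.0691 by limma. That at 3 weeks was gained without female 1, 6 or 8 of that group, at 5.39 to 5.55 with an adjusted p of 0.0377 to 0.0490 by limma.

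ENSMOCG00000004048 was lower in males in each condition without passing in any. In naive animals it was 1.37 below the females (log2 difference -1.37, SE 1.27, adjusted p = 0.583 by limma). At 24 h, within pattern A, the value was -1.94 (SE 1.27, adjusted p = 0.580) and at 3 weeks -3.06 (SE 1.37, adjusted p = 0.186). In the same order, ENSMOCG00000017266 gave -2.58 (SE 0.92, adjusted p = 0.117 by limma), -0.52 (SE 0.92, adjusted p = 0.867) and -2.50 (SE 1.00, adjusted p = 0.134). At 24 h the difference of ENSMOCG00000017266 was thus smaller than its average over all conditions, of which 24 h is a part. Its 95% interval at 24 h, from -2.38 to 1.34, held that average of -1.87, so the values do not show that they differ. The 24 h difference of ENSMOCG00000004048 was close to its own average.

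The call of ENSMOCG00000004048 was close to the threshold. It was lost when any 1 of 19 of the 46 libraries was left out, with differences of -2.10 to -1.82 and an adjusted p of up to 0.0793 by limma. These were naive females 2, 8 and 10, females 4 and 9 at 24 h, females 2, 4, 5, 7 and 9 at 3 weeks, naive males 1 and 6, males 1, 2 and 4 at 24 h, and males 1, 3, 4 and 5 at 3 weeks. Over all conditions, the calls of ENSMOCG00000009195 and ENSMOCG00000017266 held without each library in turn.

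Counting low animals gives the same comparison without a mean over low and high values. ENSMOCG00000009195 was under 10 normalized counts in 17 of 29 females (58.6%) and 4 of 17 males (23.5%), with p = 0.0322 by Fisher's exact test, 2-sided and not adjusted. Without any 1 of the 13 males above 0 this p was 0.0595. ENSMOCG00000004048 was low in 3 of 29 females (10.3%) and 9 of 17 males (52.9%; Fisher's exact p = 0.00383). ENSMOCG00000017266 was low in 2 of 29 females (6.90%) and 7 of 17 males (41.2%; Fisher's exact p = 0.00783). How many of all genes would reach such a p in this count was not examined. In the comparison of means between the sexes, 19.6% of genes were called. ENSMOCG00000004048 and ENSMOCG00000017266 had already been named for a difference between the sexes, so their counts are not independent support for it.

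Among libraries of pattern A alone the only males are the 6 at 24 h, while the 29 females are of all conditions. Sex and condition are therefore mixed within pattern A. The counts within it were not planned, and their p-values are not adjusted. There ENSMOCG00000009195 was low in 4 of 6 males (66.7%) and 17 of 29 females (Fisher's exact p = 1), so the direction turned. ENSMOCG00000004048 was low in 3 of 6 males (50%) and 3 of 29 females (Fisher's exact p = 0.0489). ENSMOCG00000017266 was low in 1 of 6 males (16.7%) and 2 of 29 females (Fisher's exact p = 0.442). Of the 10 females at 24 h alone, 5 were low for ENSMOCG00000009195, 1 for ENSMOCG00000004048 and 2 for ENSMOCG00000017266.

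The count for ENSMOCG00000004048 depends on where low begins, since a naive female at 10.8 and a female at 24 h at 27.7 normalized counts lie just above 10. With low taken as under 5, only 1 of 29 females and 2 of 17 males were low, a difference of 8.32 percentage points (Fisher's exact p = 0.545). With low taken as under 30, which is also the low band, 5 of 29 females (17.2%) and 9 of 17 males were low (Fisher's exact p = 0.0193). For ENSMOCG00000017266 a limit of 5 gave 1 of 29 females and 4 of 17 males (Fisher's exact p = 0.0549). The limit of 30 adds the 2 naive females at 12.9 and 13.3 to those under 10, giving 4 of 29 females (13.8%) and 7 of 17 males (Fisher's exact p = 0.0702). ENSMOCG00000009195 has no value between 0 and 35.1, so its counts do not change.

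For no pair of the 3 genes did the number of animals low for both differ from independence past the threshold. Independence was taken over all 46 animals, although the shares of low animals differed between the sexes. The numbers given for independence therefore do not take sex into account. Of the 46 animals, 13 were low for none of the genes, 25 for 1, 7 for 2 and 1 for all 3 at the limit of 10 normalized counts, a male at 24 h (replicate 4). ENSMOCG00000009195 and ENSMOCG00000004048 were both low in 4 animals, where independence gives 5.48 (Fisher's exact p = 0.502, adjusted over 3 pairs 0.502). ENSMOCG00000009195 and ENSMOCG00000017266 were both low in 2, against 4.11 (Fisher's exact p = 0.151, adjusted 0.317). ENSMOCG00000004048 and ENSMOCG00000017266 were both low in 4, against 2.35 (Fisher's exact p = 0.211, adjusted 0.317). With low taken as under 30, a limit inside the widest log2 gap of each gene, this last pair was low in 6 animals, against 3.35 (Fisher's exact p = 0.0654, adjusted 0.196). Naive female replicate 3 was then also low for all 3 genes, at 0, 10.8 and 13.3 normalized counts.

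**Figure D4:**
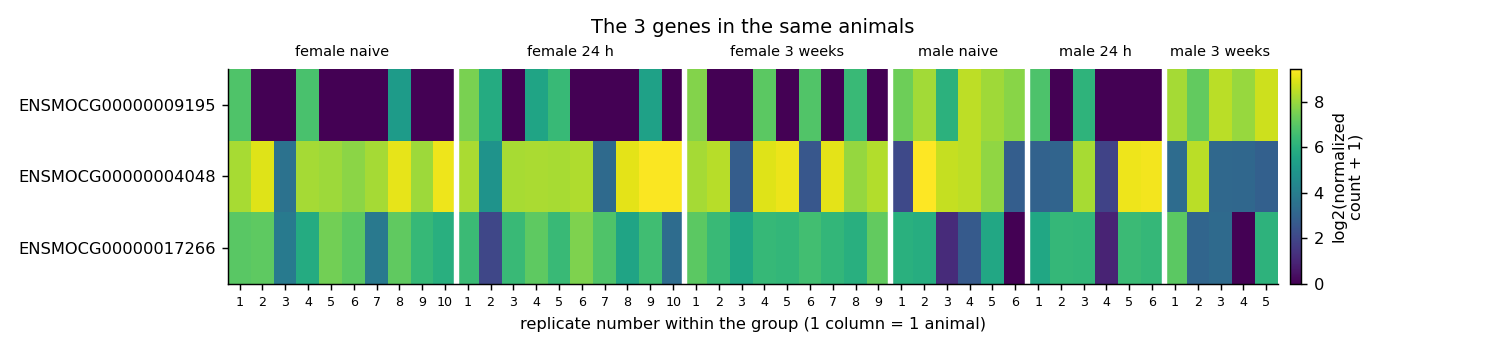
Each column is 1 animal, in order of group and replicate number, each row 1 gene, and the colour is log2(normalized count + 1). Dark cells are low values, and 1 animal, replicate 4 of the males at 24 h, is dark in all 3 rows.

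The genes that ordered the animals most like each member were sought among all 14455 genes tested, by Spearman's rho over the 46 animals after the group means were taken away. The values are descriptions. All points share the library, its depth and its normalization, and the leading genes are the extremes of 14454 candidates. ENSMOCG00000004048 had the closest partner of the 3 members in ENSMOCG00000016726, with rho = 0.88 (Pearson's r = 0.90), 0.86 over the 29 females and 0.93 over the 17 males. ENSMOCG00000016726 itself never fell near 0 and ran from 54.4 to 311 normalized counts. Next came ENSMOCG00000013660 with rho = 0.76 (r = 0.76) and, in the opposite direction, ENSMOCG00000000422 with rho = -0.64 (r = -0.59). Only 4 genes reached an absolute rho of 0.6 with ENSMOCG00000004048.

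ENSMOCG00000017266 had more genes of like or opposite order than the other members. For 86 of the 14454 other genes the absolute rho was at least 0.6, 39 in the same and 47 in the opposite direction. How many genes reach this limit for other tested genes was not counted. The closest was ENSMOCG00000017803 with rho = 0.87 (r = 0.84), 0.80 over females and 0.93 over males. It ran from 2743 to 6266 normalized counts and was near 0 in no animal. ENSMOCG00000020935 ran opposite with rho = -0.86 (r = -0.75), -0.90 over females and -0.88 over males, between 151 and 852 normalized counts. ENSMOCG00000012096 followed with rho = 0.85 (r = 0.83), 0.89 over females and 0.91 over males.

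For ENSMOCG00000009195 no gene reached an absolute rho of 0.6. With the group means taken away, its 21 animals at 0 no longer tie but differ by group. Its rho therefore does not simply set animals at 0 against the others. The closest were ENSMOCG00000009867 with rho = 0.59 (r = 0.59), ENSMOCG00000018821 with rho = -0.55 (r = -0.56) and ENSMOCG00000013510 with rho = -0.53 (r = -0.49). Against Avpr1a, rho over the 46 animals was 0.39 for ENSMOCG00000009195 (0.51 over females and 0.05 over males), 0.00 for ENSMOCG00000004048 (-0.19 over females and 0.44 over males) and -0.22 for ENSMOCG00000017266 (-0.48 over females and 0.15 over males). Among the members themselves rho lay between -0.07 and 0.08.

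**Figure D5:**
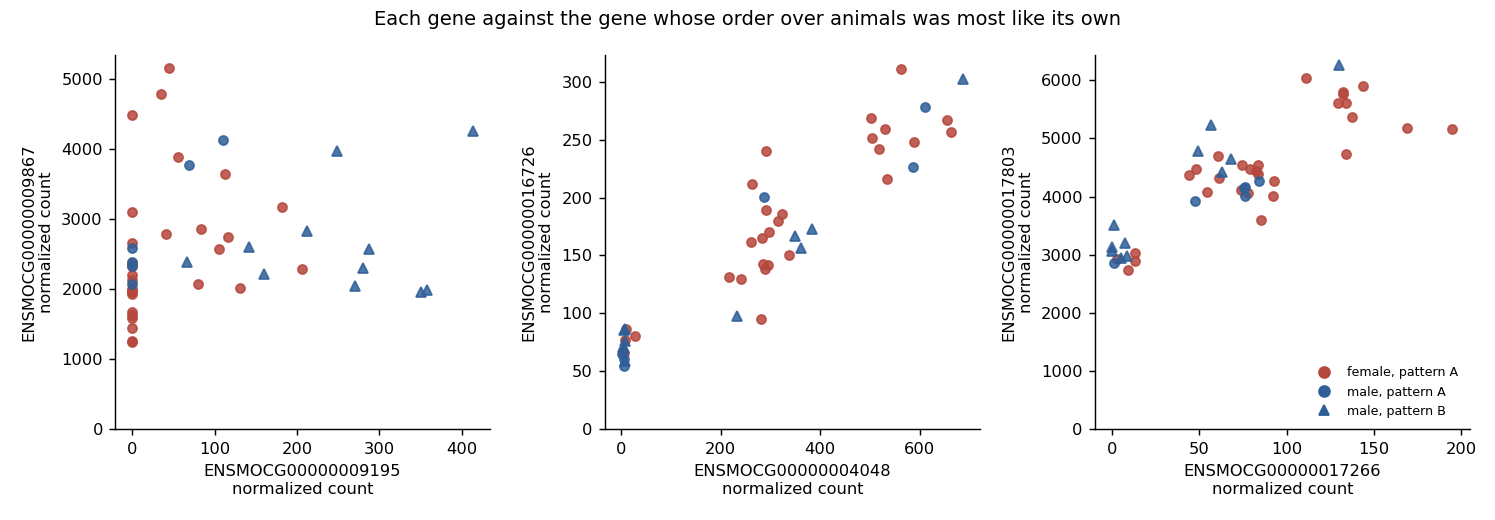
Normalized counts of each member (x axis) and of the gene closest to it in rho (y axis), on linear scales, 1 point per animal, with colour for sex and shape for normalization pattern. ENSMOCG00000016726 and ENSMOCG00000017803 rise along with the bands of their partners, and ENSMOCG00000009867 shows a wide spread among the 21 animals listed at 0.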

How the data were processed

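The values deposited by the authors, 17479 genes in 46 libraries, are log2(normalized count + 1), as judged from the values. Per the submitters' processing notes, the tools included fastp 0.14.1, Salmon 0.12 and DESeq2, and the libraries were unstranded and poly(A)-selected, per the labels' protocols. Neither genome build nor annotation is given in the sources used here. Salmon shares reads between similar transcripts by estimation, and whether the 3 genes share reads with other genes was not tested.

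The value of 1 read was read from the even steps of low values (51.9% to 91.8% of values of up to 3 reads within 0.1 of a whole number, median 85.6%), and the remaining gene-specific factors were clustered by average linkage into patterns A and B. Whole reads were not recovered, so no count model was used. Differences were tested with limma 3.58.1 in R 4.3.3 (trend, robust, pseudocount 1, mean of at least 10), which was first tested on simulated data, in 12 comparisons over 14455 genes. Exact tests used scipy 1.17.1. Genes of like pattern were the 3 with the largest absolute rho per member. The members, limits and comparisons were chosen with earlier results of these data known. Counts of low animals by sex carry unadjusted p-values, although an adjustment over the 3 genes had been planned. Nothing says that the animals of a group were bred or sampled independently. The p-values judge differences against the spread between libraries taken as independent, and would be too small if animals shared litters or cages.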

Additional observations from a re-analysis of the deposited data

Results flagged for a closer look

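In 3 of 18 combinations of gene and group, 1 animal stood apart from the rest by Dixon's gap ratio on the log2 scale. The ratio flags about 1 in 20 groups by chance for genes not picked on their spread. These genes were picked for such gaps, so that rate does not hold here, and the values below are a description, not a test. For ENSMOCG00000004048, naive female replicate 3 was the lowest of 10, at 3.56 on the log2 scale or 10.8 normalized counts. Its gap to the next animal was 0.747 of the group's range and above the limit for 10 animals. For the same gene, replicate 2 of the males at 3 weeks was the highest of 5, at 8.45 or 349 normalized counts, with a gap of 0.926 of the range. For ENSMOCG00000017266, replicate 4 of the males at 24 h was the lowest of 6, at 0.92 or 0.896 normalized counts, with a gap of 0.851 of the range. All 3 animals lay inside the bands that other groups showed for the same gene.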

How the results depend on the processing

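The comparison of the sexes depended most on which conditions entered it. At 24 h alone, within pattern A, the log2 difference was -0.90 for ENSMOCG00000009195 (reversed), -1.94 for ENSMOCG00000004048 and -0.52 for ENSMOCG00000017266, none past the threshold. In naive animals alone the last 2 were at -1.37 and -2.58, also short of it, and at 3 weeks alone all 3 genes were short of it, at 4.98, -3.06 and -2.50. These alternatives use fewer animals and were chosen after seeing the data. The call of ENSMOCG00000004048 was also lost with no filter on low values, at -2.12 with an adjusted p of 0.0503. Without 1 library its difference ran from -2.48 to -1.82. The share of low males minus that of low females, in percentage points, turned to 8.05 for ENSMOCG00000009195 within pattern A. It lost its p under 0.05 for ENSMOCG00000004048 with low as under 5 (8.32) and for ENSMOCG00000017266 with low as under 5 (20.1), as under 30 or below the widest gap (27.4) and within pattern A (9.77). Without 1 library that of ENSMOCG00000009195 ran from -39.9 to -33.6.

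Small differences that never passed the threshold changed sign. For ENSMOCG00000009195, females at 3 weeks minus 24 h came to -0.12 with a pseudocount of 0.1, and from -0.52 to 0.55 without 1 library. Without 1 library, ENSMOCG00000004048 ran from -0.70 to 0.27 for females at 24 h minus naive, from -0.93 to 0.14 for females at 3 weeks minus 24 h and from -1.47 to 0.19 for the 24 h interaction. ENSMOCG00000017266 ran from -0.59 to 0.10 for females at 24 h minus naive, from -0.00571 to 0.40 at 3 weeks minus naive, from -0.44 to 1.32 for males at 3 weeks minus naive and from -0.70 to 1.06 for the 3 week interaction. Among females only, animals low for both genes minus the number under independence turned to 0.24 for ENSMOCG00000009195 with ENSMOCG00000004048 and to -0.21 for ENSMOCG00000004048 with ENSMOCG00000017266.

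Deviations from group means correlated at a mean of 0.00 across genes in 95 same-numbered replicate pairs (14 over 0.1) and 774 other-numbered (139). This cannot exclude shared cages or litters. With the replicate block, ENSMOCG00000004048 differed between the sexes by -1.80 (adjusted p = 0.152 by limma), and females at 3 weeks minus 24 h came to -0.22 for ENSMOCG00000009195. With the block, naive males stood 5.01 above naive females for ENSMOCG00000009195 (adjusted p = 0.0409 by limma). No other call of the 3 genes changed in the comparisons run with the block. It moved the number of genes called from 15 to 44 for females at 24 h against naive, from 10 to 22 for males at 3 weeks against 24 h and from 7 to 17 for the 24 h interaction.

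Over the alternatives other than leaving out a library, including the block, these 3 numbers ran from 0 to 44, from 0 to 22 and from 0 to 17, and that for males at 24 h against naive, 35 as reported, from 2 to 51. Without 1 library they ran from 0 to 476, from 7 to 20, from 0 to 11 and from 14 to 60. The 2 comparisons of females at 3 weeks gave 0 or 1. A mean of at least 100 left out ENSMOCG00000009195 and ENSMOCG00000017266, so they have no value there. A term for the normalization pattern was not run, because the pattern is the same in every library of a group and cannot be fitted beside the 6 group means.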
